A study of Homo sapiens with 8 samples.

Results

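The MYC-MAX network is a group of transcription factors that compete for shared binding partners on DNA, and 9 of its genes were followed here through triple-negative breast cancer cells exposed to Acetalax: MYC, MAX, MNT, MXD1, MXD3, MXD4, MXI1, MGA and MLX. The genes were taken by symbol from the table of raw counts, and all 9 were found, each under 1 of 55679 gene identifiers. Acetalax (oxyphenisatin acetate) is a former laxative that kills some triple-negative breast cancer cells. MDA-MB468 and BT549 are established human triple-negative lines that are sensitive to it. Parental cells of each line, and cells of the same line grown with Acetalax stepped up to 40 μmol/L until resistant (CE, for chronic exposure) and then kept 2 weeks without drug, were harvested without drug (control) or after 6 hours with 1 μmol/L Acetalax. Each of the 8 conditions is 1 library of polyA RNA, so no condition has a replicate. The CE cells were grown out of the parental cells, and 1 CE population stands for each line.

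MYC binds DNA only as a pair with MAX, mostly at the E-box CACGTG, and raises transcription of genes for ribosome production, nucleotide synthesis and growth. MNT and the MXD proteins (MXI1 is a member of that family) also pair with MAX, occupy the same motif and bring in SIN3 and histone deacetylases, which lower transcription. MGA pairs with MAX within a variant polycomb complex, and MLX, a relative of MAX, pairs with MNT, MXD1 and MXD4 and with the glucose-responsive factors MondoA (gene MLXIP) and ChREBP (gene MLXIPL). Several of these genes carry the motif that the network itself binds, and their start regions are printed for that reason. RefSeq windows (GRCh38.p14) of 300 bases, from 250 before to 50 after the transcription start, were available for 8 of the 9 genes. CACGTG, which reads the same on both strands, was present in windows of 3 of the 8, MXD4, MNT and MLX, and in 8.77% of the 27305 genes with such a window. The 250 bases before the start are given for these 3, 5′ to 3′ along the gene, with the motif in capitals. They lie in GRCh38.p14 at chr4:2262110-2262359 (MXD4, minus strand), chr17:2401061-2401310 (MNT, minus strand) and chr17:42566850-42567099 (MLX, plus strand).
MXD4: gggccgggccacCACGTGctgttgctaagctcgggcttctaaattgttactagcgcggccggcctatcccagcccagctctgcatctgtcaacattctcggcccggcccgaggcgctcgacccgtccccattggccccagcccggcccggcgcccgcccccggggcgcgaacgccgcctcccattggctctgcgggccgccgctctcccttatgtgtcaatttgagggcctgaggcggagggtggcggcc
MNT: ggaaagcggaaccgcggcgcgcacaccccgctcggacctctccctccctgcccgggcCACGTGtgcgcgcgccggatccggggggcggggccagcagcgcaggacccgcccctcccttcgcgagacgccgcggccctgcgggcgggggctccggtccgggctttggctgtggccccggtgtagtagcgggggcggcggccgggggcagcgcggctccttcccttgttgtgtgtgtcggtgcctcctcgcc
MLX: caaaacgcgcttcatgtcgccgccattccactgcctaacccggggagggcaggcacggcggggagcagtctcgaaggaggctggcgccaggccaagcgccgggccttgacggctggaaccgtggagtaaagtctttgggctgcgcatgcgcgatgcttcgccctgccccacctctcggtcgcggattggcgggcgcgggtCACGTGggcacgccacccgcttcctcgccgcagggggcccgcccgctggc
The motif began 238 bases before the start in MXD4, 193 before in MNT and 50 before in MLX. The windows of MAX, MXD1, MXD3, MXI1 and MGA did not hold these letters, which says nothing of binding elsewhere.

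The libraries held from 42261122 to 54241728 counts on genes, so 1 CPM (a count scaled to the total of its library) stood for 42.3 to 54.2 counts. Keratins and EPCAM marked MDA-MB468 (the 4 epithelial markers summed to between 3364 and 5784 CPM in its libraries), whereas VIM, FN1 and CDH2 marked BT549 (1566 to 3289 CPM). CDH2 was at 0 in all MDA-MB468 libraries, and leukocyte markers summed to at most 0.793 CPM in any library. In BT549 control cells the epithelial sum was 8.35 CPM in parental and 83.3 CPM in CE cells, and the mesenchymal sum 3179 and 1566 CPM. The higher epithelial sum lay in KRT8 (1.25 and 34.4 CPM) and KRT18 (6.67 and 47.9 CPM). EPCAM (0.189 and 0.037 CPM) and CDH1 (0.237 and 0.959 CPM) stayed under 1 CPM in both. In MDA-MB468 the mesenchymal sum was 38.9 CPM in parental and 15.1 CPM in CE control cells. Whether these shifts bear on the network genes was not tested. ERBB2 lay between 41.2 and 95.2 CPM, ESR1 did not exceed 5.15 CPM and PGR did not exceed 0.627 CPM.

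MYC was the most abundant of the 9 transcripts per length, with a median of 29.2 FPKM (CPM per kilobase of merged exons) over the 8 libraries, from 17.4 to 50.9. MLX followed at a median of 8.94 FPKM (5.47 to 11.4), then MXD4 at 6.42 (2.03 to 15.6), MAX at 5.62 (4.07 to 9.80) and MXD3 at 5.35 (3.15 to 8.66). The other four had medians of 3.51 (MNT), 3.49 (MGA), 3.09 (MXD1) and 2.88 FPKM (MXI1). Only the first place stood apart from its neighbour: the lowest MYC value was above the highest value of each other gene, while the ranges of all neighbours below it overlapped. Divided by the longest transcript instead, MYC (47.9) and MLX (14.7 FPKM) were still the highest, but MAX (11.14) and MXD3 (11.13) came before MXD4 (10.4 FPKM). MGA varied least in CPM, 1.35-fold between its lowest and highest library, and MXD4 most, 7.69-fold. The 2 lines differed in which antagonist was abundant: MXD4 ranked 2 of 9 in BT549 with a median of 10.1 FPKM and 8 of 9 in MDA-MB468 with 3.09, and MXI1 ranked 9 in BT549 with 1.24 and 6 in MDA-MB468 with 3.43 FPKM.

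**Figure D1:**
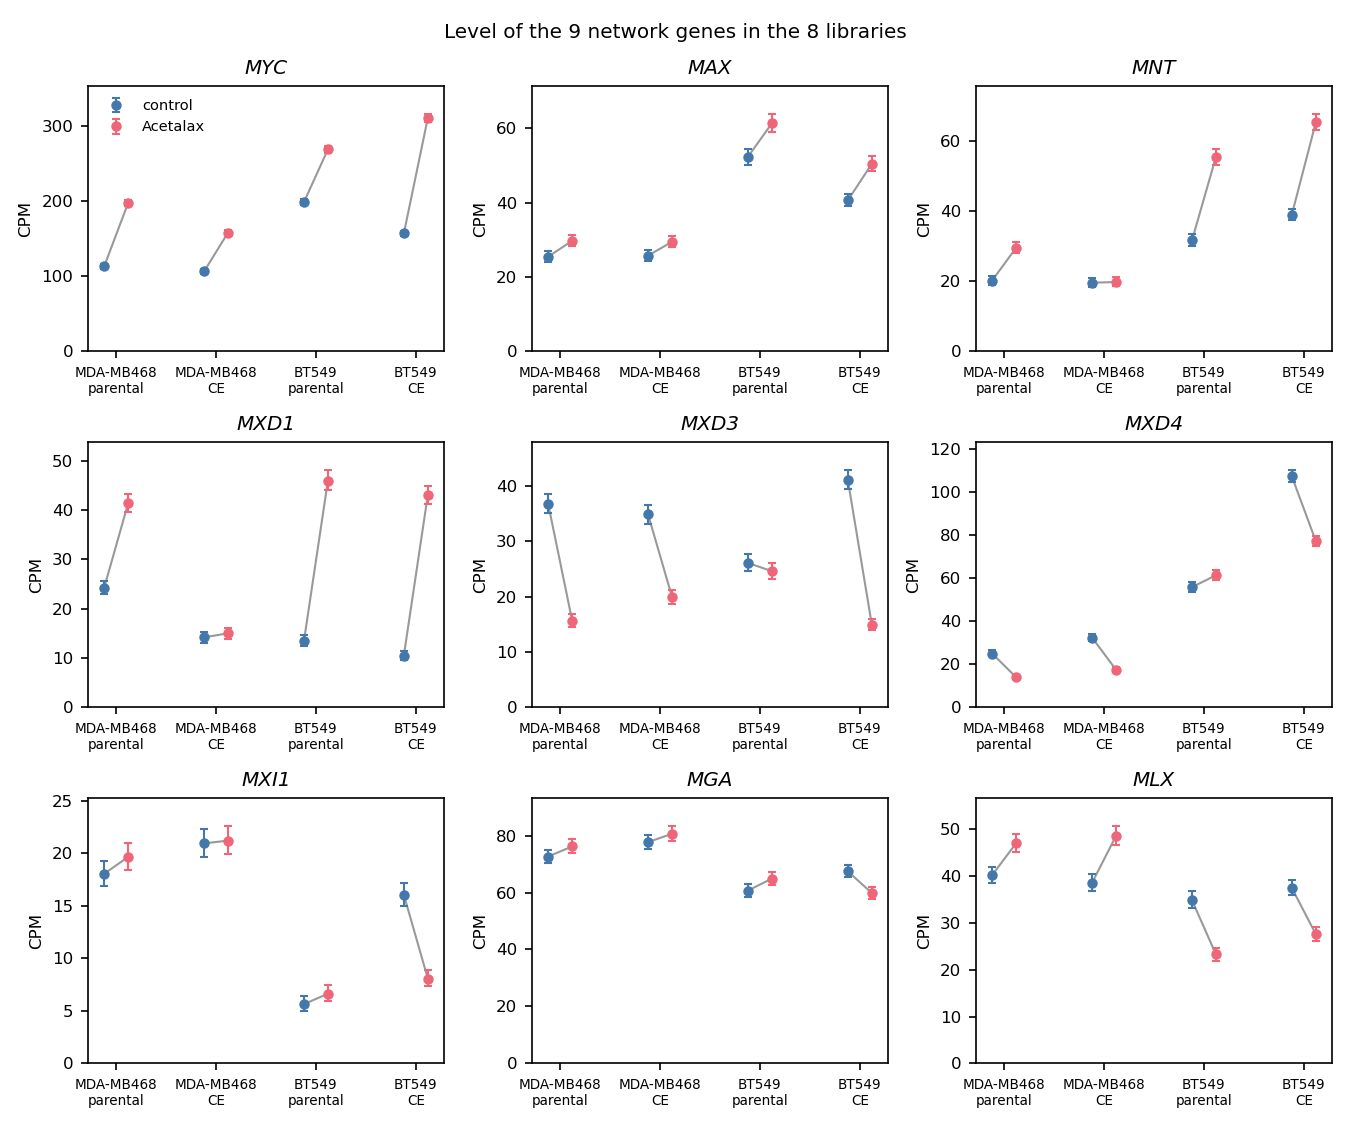
Level of each gene in CPM (vertical axis, linear, from 0) in the 8 libraries, with control in blue and Acetalax in red for the 4 backgrounds; bars are 95% Wilson intervals and cover counting error only, and each point is 1 library. MYC and MAX are higher with Acetalax in all 4 backgrounds, MXD3 is lower in 3 and close to level in BT549 parental cells, and MLX goes up in MDA-MB468 and down in BT549.

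The first comparison asked how the network responded to 6 hours of Acetalax. MYC and MAX had higher CPM with drug in all 4 backgrounds, and MNT and MXD1 did beyond counting error in 3 backgrounds. MXD3 had lower CPM in all 4 (beyond counting error in 3), and MXD4 had lower CPM in 3. The ratio of MXD4 in BT549 CE cells lay at percentile 32.1 of the 14030 genes whose mean reached 1 CPM. That of MXD3 in BT549 parental cells lay at percentile 51.7. Of the 9 genes, only MYC passed the test over the 4 treated and control pairs. In that test (edgeR's quasi-likelihood test with a term for each background, Benjamini-Hochberg adjustment over 19693 genes), 2.72% of the genes were called higher and 2.27% lower (536 and 448 genes). With total counts in place of TMM the split was 373 higher and 685 lower. The p-values measure the spread of the response among 4 backgrounds from 2 lines, of which the CE cells derive from the parental ones, so the 4 are not independent cultures.

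MYC stood at 113 CPM in MDA-MB468 parental control cells and 198 CPM with Acetalax, and at 106 and 158 CPM in MDA-MB468 CE cells. In BT549 it stood at 199 and 269 CPM in parental and at 157 and 311 CPM in CE cells. Each treated library was thus above its own control, and the 2 lines overlapped in level. The ratios were 1.75-fold and 1.49-fold in MDA-MB468 parental and CE cells and 1.35-fold and 1.98-fold in BT549 parental and CE cells. Over the 4 backgrounds the log2 change was 0.79 ± 0.12 (SE, edgeR adjusted p = 0.0323). The call was lost without the MDA-MB468 parental pair, where the log2 change was 0.78 and the edgeR adjusted p 0.170, and 0 of 18967 genes were called. In bulk RNA, a change in the mix of cells and a change in RNA per cell cannot be told apart. PVT1, a noncoding RNA gene next to MYC, was also higher in each pair, at log2 ratios of 0.81, 0.32, 0.22 and 0.49 in the same order, and did not pass (0.55 ± 0.14 over the 4 backgrounds, SE, edgeR adjusted p = 0.0612).

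MAX, the shared partner (chr14:65472892-65569413, minus strand, hg19 as deposited), went from 25.4 to 29.7 CPM in MDA-MB468 parental and from 25.8 to 29.4 CPM in MDA-MB468 CE cells. In BT549 it went from 52.3 to 61.3 CPM in parental and from 40.6 to 50.4 CPM in CE cells. The 4 ratios were small and alike, between 1.14-fold and 1.24-fold, and all BT549 libraries lay above all MDA-MB468 libraries. The log2 change over the 4 backgrounds was 0.33 ± 0.10 (SE, edgeR adjusted p = 0.0925), short of the threshold.

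MNT, an antagonist of MYC found in most growing cells (chr17:2287354-2304412, minus strand, hg19), went from 20.2 to 29.5 CPM in MDA-MB468 parental, from 31.6 to 55.3 in BT549 parental and from 38.9 to 65.2 in BT549 CE cells. In MDA-MB468 CE cells it was 19.5 CPM without and 19.7 CPM with drug, within counting error. Its log2 change over the 4 backgrounds was 0.62 ± 0.16 (SE, edgeR adjusted p = 0.0597).

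MXD1, the antagonist classically raised when cells stop dividing and differentiate (chr2:70124820-70170077, plus strand, hg19), gave the widest ratios. In BT549 it went from 13.5 to 46.0 CPM in parental and from 10.5 to 43.1 CPM in CE cells, 3.40-fold and 4.07-fold. In MDA-MB468 it went from 24.2 to 41.4 CPM in parental cells (1.71-fold), but from 14.2 to 15.0 CPM in CE cells, where the 95% counting interval of the log2 ratio, -0.08 to 0.23, included 0. In the 2 BT549 pairs this gene lay at percentiles 99.6 and 99.2 of the 14030 genes whose mean reached 1 CPM. Over the 4 backgrounds the log2 change was 1.26 ± 0.32 (SE, edgeR adjusted p = 0.0620), with single backgrounds spread from 0.08 to 2.02. Without the MDA-MB468 CE pair both MXD1 (log2 change 1.64, edgeR adjusted p = 0.0449) and MNT (log2 change 0.81, edgeR adjusted p = 0.0454) passed.

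MXD3 and MXD4 are antagonists of the same family. MXD3 (chr5:176728462-176739758, minus strand, hg19) went from 36.8 to 15.7 CPM in MDA-MB468 parental, from 34.9 to 20.0 in MDA-MB468 CE and from 41.1 to 14.9 in BT549 CE cells. In BT549 parental cells it stood at 26.1 CPM without and 24.6 CPM with drug, within counting error, and that control was the lowest of the 4 controls. Its log2 change over the 4 backgrounds was -0.81 ± 0.22 (SE, edgeR adjusted p = 0.0678), and without the BT549 parental pair -1.05 with an edgeR adjusted p of 0.0475. MXD4 (chr4:2249159-2264021, minus strand, hg19) went from 25.01 to 14.0 CPM and from 32.4 to 17.4 CPM in MDA-MB468 parental and CE cells, and from 107 to 77.3 CPM in BT549 CE cells. In BT549 parental cells it was higher with drug, 61.4 against 55.9 CPM. The log2 change was -0.42 ± 0.18 (SE, edgeR adjusted p = 0.173).

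MXI1, MGA and MLX did not move in a common direction. MXI1 (chr10:111967363-112047123, plus strand, hg19) stood at 18.0 and 19.6 CPM without and with drug in MDA-MB468 parental, at 20.9 and 21.2 in MDA-MB468 CE and at 5.63 and 6.62 in BT549 parental cells, all within counting error. In BT549 CE cells it went from 16.04 to 8.07 CPM. MGA (chr15:41913422-42062141, plus strand, hg19) stayed between 59.8 and 80.6 CPM, and its 4 log2 ratios lay between -0.17 and 0.10. The ratio of MGA in BT549 CE cells was -0.17 with total counts, -0.02 with TMM scaling and 0.03 with DESeq2's size factors. For MXI1 and MGA the log2 changes over the 4 backgrounds were -0.06 and 0.10 (edgeR adjusted p = 0.875 and 0.509).

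MLX (chr17:40719086-40725257, plus strand, hg19) moved in opposite directions in the lines. It went from 40.2 to 47.0 CPM in MDA-MB468 parental and from 38.6 to 48.6 CPM in MDA-MB468 CE cells, but from 34.9 to 23.3 CPM in BT549 parental and from 37.5 to 27.6 CPM in BT549 CE cells. With drug, the MDA-MB468 libraries therefore lay above and the BT549 libraries below all 4 controls. The log2 ratio in BT549 CE cells was -0.44 with total counts, -0.285 with TMM and -0.241 with DESeq2's size factors. It lay at percentile 34.3 of the 14030 genes, in a pair whose median over all genes was -0.20. The BT549 parental ratio lay at percentile 11.9. Over the 4 backgrounds the log2 change was -0.02 ± 0.17 (SE, edgeR adjusted p = 0.945).

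**Figure D2:**
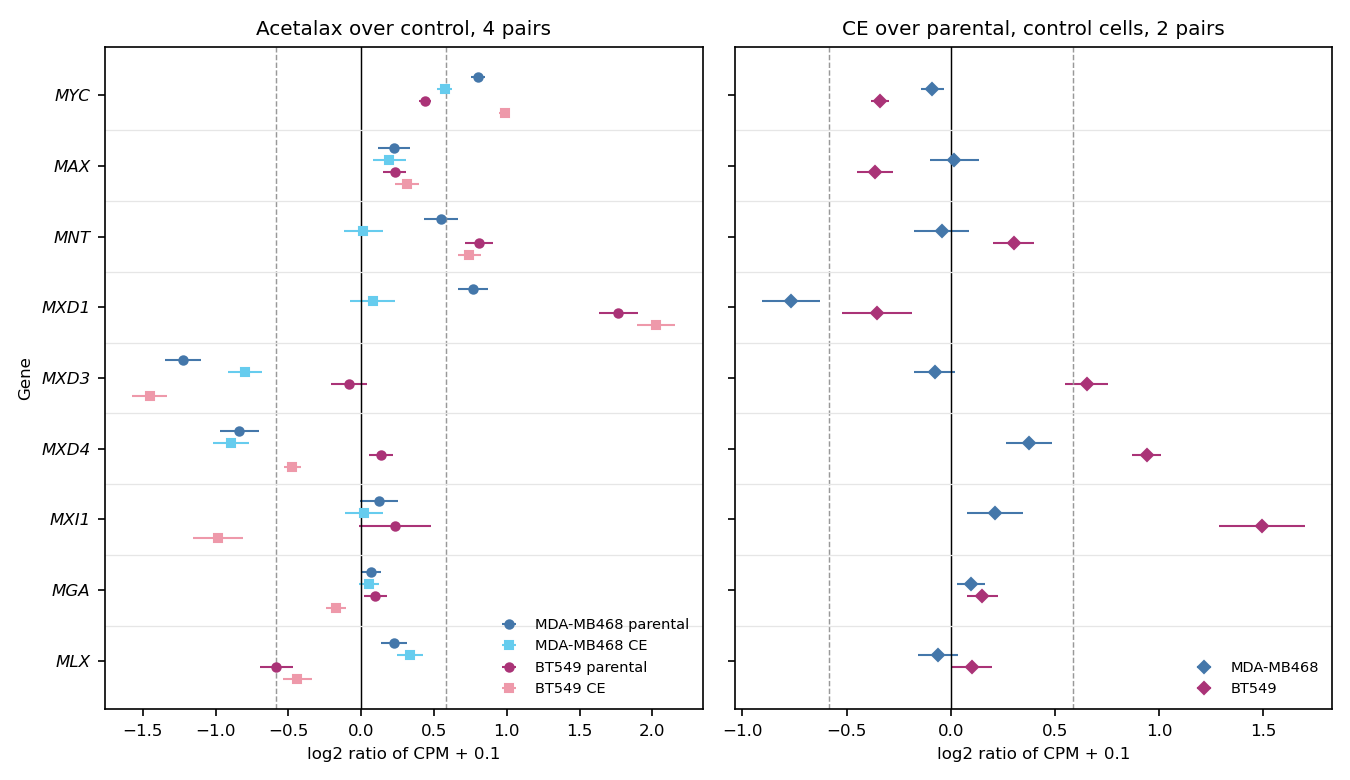
Log2 ratios of CPM + 0.1 (horizontal axis) for the 9 genes, left for Acetalax over control in the 4 backgrounds and right for CE over parental control cells in the 2 lines; bars are 95% Poisson counting intervals and dashed lines mark 1.5-fold. MXD1 reaches 1.77 and 2.02 in BT549 against 0.77 and 0.08 in MDA-MB468, and MLX is to the right of 0 in both MDA-MB468 pairs and to the left in both BT549 pairs.

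The difference of the response between the lines was tested directly in a fit with 1 Acetalax term per line, added after the opposite signs of MLX had been seen; 1.78% of 19693 genes were called. MXD1 was the called member: its response was larger in BT549 than in MDA-MB468 by 1.52 ± 0.28 on the log2 scale (SE, edgeR adjusted p = 0.0452), 2.03 in the BT549 pairs alone and 0.53 in the MDA-MB468 pairs alone. The call was lost without the MDA-MB468 CE pair (1.197, edgeR adjusted p = 0.0811). For MLX the difference was -0.74 ± 0.19 (SE, edgeR adjusted p = 0.104), for MXD4 0.75 ± 0.22 (SE, edgeR adjusted p = 0.139) and for MNT 0.55 ± 0.22 (SE, edgeR adjusted p = 0.263), none past the threshold. For MYC it was 0.08 ± 0.22 (SE, edgeR adjusted p = 0.914). With 1 culture per condition, a difference between the lines and a difference between these cultures cannot be told apart.

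The next question was whether the response differed between parental and CE cells. Tested in the 2 lines together, the response had log2 values of 0.69 ± 0.18 in parental and 0.89 ± 0.19 in CE cells for MYC, 1.34 ± 0.49 and 1.17 ± 0.51 for MXD1, and -0.59 ± 0.32 and -1.02 ± 0.32 for MXD3 (SE). None of the 9 genes passed in either, and edgeR called 0.0% of 19693 genes in parental cells, 0.0% in CE cells and 0.0% for the difference between them. Without the filter on low counts MYC and MXD1 passed in parental cells (edgeR adjusted p = 0.0251 and 0.000164). In CE cells MYC, MXD1 and MXD3 passed without it (edgeR adjusted p = 0.000115, 0.00129 and 0.0119). The log2 changes were hardly altered by this, at 0.68 for MYC and 1.32 for MXD1 in parental cells. Their SE without and with the filter was 0.188 and 0.185 for MYC, and 0.268 and 0.486 for MXD1. MYC passed in CE cells with DESeq2 (adjusted p = 0.0177), and MXD1 in CE cells without the MDA-MB468 CE pair (edgeR adjusted p = 0.0489), where BT549 alone sets the value. At an unadjusted p under 0.05 there were 1710, 2311 and 91 genes, and DESeq2 called 90, 357 and 0 genes. Across the 9 members the difference of CE minus parental ranged from -0.62 ± 0.41 (MXI1) to 0.20 ± 0.26 (MYC) on the log2 scale (SE), each with an edgeR adjusted p of 1.

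Single pairs have no replicate and no test, and were read against all 14030 genes whose mean reached 1 CPM. In MDA-MB468 parental cells 2 members (MYC and MXD1) were at least 1.5-fold higher, as were 10.6% of genes, and 2 (MXD3 and MXD4) at least 1.5-fold lower, as were 13.8%. With TMM these were 1678 genes higher and 1630 lower against 1491 and 1938, and MNT was past 1.5-fold too (log2 ratio 0.60 in place of 0.55). In MDA-MB468 CE cells 0 were past 1.5-fold higher (6.47% of genes) and the same 2 lower (8.55%). With TMM 1103 genes were higher and 982 lower against 908 and 1200, and MYC passed 1.5-fold there (log2 ratio 0.64 in place of 0.57). In BT549 parental cells 2 were higher, MNT and MXD1 (5.63%), and 0 lower (11.9%), or 988 genes higher and 1312 lower with TMM against 790 and 1665 with total counts. In BT549 CE cells 3 were higher, MYC, MNT and MXD1 (9.17%), and 2 lower, MXD3 and MXI1 (26.6%), or 1786 genes higher and 2865 lower with TMM against 1286 and 3728. The median log2 ratio of all genes in that last pair was -0.20 with total counts and -0.05 with TMM, a shift of more than 0.1, so ratios there are better read against that median, at which MYC lay at percentile 95.8 and MXD3 at 4.8. In all 4 pairs 4 members were higher (MYC, MAX, MNT and MXD1), as were 11.8% of genes, and 1 was lower (MXD3), as were 29.5%. With TMM the counts of members were 4 and 1 again, beside 2494 and 3052 genes in place of 1652 and 4135.

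Because the partners of MAX compete for it, their transcripts were also expressed as shares of the summed FPKM of MYC, MNT, MGA and the MXD group (MXD1, MXD3, MXD4 and MXI1). This is a sum of RNA levels and not of protein. The paralogs of MYC were left out of it. Of these, MYCN stood at 16.2 CPM in MDA-MB468 parental control cells and 3.17 CPM with drug, so the shares there would differ if it were counted. In control cells MYC made up 43.4% of the sum in MDA-MB468 parental, 42.1% in MDA-MB468 CE, 58.2% in BT549 parental and 41.3% in BT549 CE cells. With Acetalax the shares were 59.1%, 57.7%, 57.9% and 60.7%. The controls of MDA-MB468 parental, MDA-MB468 CE and BT549 CE cells thus lay near each other and below every treated library, while the BT549 parental control already had the share seen with drug and did not shift. With the longest transcript as length the shares were 40.3% to 42.8% in those controls, 57.6% in BT549 parental control cells and 57.7% to 61.5% with drug. The MXD group made up 42.7%, 43.1%, 29.9% and 46.1% in the controls and 27.7%, 28.3%, 29.5% and 26.9% with Acetalax. MNT held at most 8.93% and MGA at most 9.35% of the same sum in any library. A higher MYC share therefore largely forces a lower MXD share, and these values are not a separate observation on the MXD group. Its makeup changed as well: in BT549 parental cells, where the group share was level, MXD1 went from 3.79% to 9.51% of the sum while MXD3 went from 9.84% to 6.82% and MXD4 from 14.5% to 11.7%. The level of MYC over that of MAX went from 4.56 to 6.82, 4.24 to 5.51, 3.90 to 4.50 and 3.97 to 6.32 in the order above (ratio of FPKM).

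**Figure D3:**
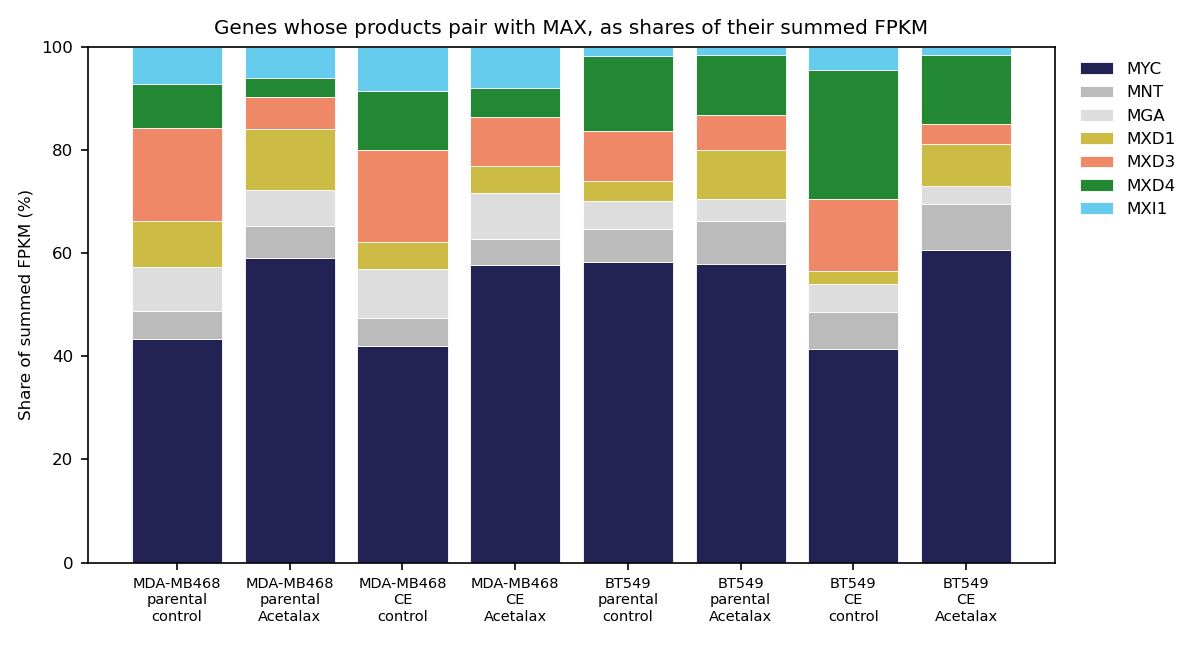
Shares of 7 genes in their summed FPKM (vertical axis, percent, from 0 to 100) in each of the 8 libraries. The MYC segment at the bottom covers 41.3% to 43.4% in 3 controls, 58.2% in the BT549 parental control and 57.7% to 60.7% in the 4 treated libraries.

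The comparison of CE with parental cells without drug used the 4 control libraries and had 1 residual degree of freedom. The members past 1.5-fold were antagonists in both lines, MXI1, MXD4 and MXD3 in BT549 and MXD1 in MDA-MB468. MXI1 stood at 16.04 CPM in BT549 CE against 5.63 CPM in BT549 parental cells, 2.82-fold, and at 20.9 against 18.0 CPM in MDA-MB468. MXD4 was 107 against 55.9 CPM in BT549 (1.92-fold) and 32.4 against 25.01 CPM in MDA-MB468 (1.30-fold). MXD3 was higher in BT549 CE cells, 41.1 against 26.1 CPM, and within counting error in MDA-MB468, 34.9 against 36.8 CPM. MXD1 was lower in both lines, going from 24.2 to 14.2 CPM in MDA-MB468 and from 13.5 to 10.5 CPM in BT549. MYC was 106 against 113 CPM in MDA-MB468 and 157 against 199 CPM in BT549, so both CE controls lay below their parental controls. Of the other four, MAX and MNT differed in BT549 only by more than counting error (log2 ratios -0.36 and 0.30), MGA by 0.10 and 0.15 in MDA-MB468 and BT549, and MLX by -0.06 and 0.10.

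In the test across both lines 0.0% of 18377 genes were called by edgeR, with 610 at an unadjusted p under 0.05 and 50 called by DESeq2. The log2 differences were 0.66 ± 0.25 for MXD4, 0.86 ± 0.44 for MXI1 and -0.56 ± 0.28 for MXD1 (SE), each with an edgeR adjusted p of 0.947. By ratio alone, 0 members in MDA-MB468 were past 1.5-fold higher (6.86% of genes) and 1, MXD1, lower (4.67%). In BT549 3 members, MXI1, MXD4 and MXD3, were higher (15.3%) and 0 lower (14.5%).

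Several members share exon stretches with neighbouring genes. Exons of MXD3 overlap those of RAB24 on the same strand over 926 bases and of PRELID1 on the other strand over 1148 bases in the annotation used for lengths, and these neighbours held 100 to 265 and 3503 to 6530 counts. MLX shares 775 exon bases with PSMC3IP on the other strand, whose counts went from 616 to 732 and from 559 to 674 with drug in MDA-MB468 parental and CE cells and from 540 to 740 and from 475 to 649 in BT549 parental and CE cells. Exons of MXD1 overlap SNRNP27 (684 to 874 counts) and those of MAX overlap FNTB (84 to 208 counts). As the strand setting of the counting is not stated, reads from such stretches cannot be assigned with certainty, and their part in the values was not tested.

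Transcripts of other proteins of the network were read from a list of 12 genes. In the test over the 4 backgrounds 0 of the 12 were called higher and 1 lower, beside 2.72% and 2.27% of all genes tested. The median log2 change was 0.10 against -0.04 over all genes. The called gene was MYCN, a paralog of MYC, at -2.64 ± 0.35 (SE, edgeR adjusted p = 0.0362). It stood at 16.2 CPM in MDA-MB468 parental control and 3.17 CPM with drug, at 3.26 and 0.336 CPM in MDA-MB468 CE cells, and at 0 in all BT549 libraries, so its call rests on the 2 pairs of MDA-MB468. The third paralog, MYCL, did not exceed 3.37 CPM and stood at 1.47 and 0.322 CPM without and with drug in BT549 parental and at 3.37 and 0.218 CPM in BT549 CE cells (-1.70 ± 0.56, SE, edgeR adjusted p = 0.103). Among partners of MLX, MLXIP was higher in each pair (0.41 ± 0.11, SE, edgeR adjusted p = 0.0689), and MLXIPL did not exceed 1.34 CPM. USF1, another E-box binding factor, was lower in each pair (-0.41 ± 0.11, SE, edgeR adjusted p = 0.0690), and USF2 had a log2 change of -0.09. The corepressor genes SIN3A, SIN3B, HDAC1 and HDAC2 had log2 changes of 0.16, 0.18, -0.21 and 0.05, and TFAP4 and ZBTB17 (MIZ1, through which MYC represses) 0.32 and 0.21, none of them called.

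Genes known to be activated by MYC were read from a list of 40, of which 39 were tested. Of these, 5 were called higher and 0 lower, that is 5 of 39 beside the 2.72% above, and the median log2 change was 0.30 against -0.04 over all genes tested. At an unadjusted p under 0.05, 22 were higher and 0 lower, beside 2468 and 3056 of the 19693 genes. The list was chosen with earlier results of these data known. Its counts therefore describe these genes and do not test MYC targets as a class. PPAN and RRP12, which act in ribosome assembly, were the highest by their smallest ratio: PPAN stood at 25.2 and 42.8 CPM without and with drug in MDA-MB468 parental, 18.3 and 31.6 in MDA-MB468 CE, 8.66 and 14.1 in BT549 parental and 7.02 and 18.6 in BT549 CE cells (1.00 ± 0.17, SE, edgeR adjusted p = 0.0361). RRP12 had a log2 change of 0.85 ± 0.17 (SE, edgeR adjusted p = 0.0424). The other three called genes, DDX21 (0.82), WDR43 (0.67) and NOLC1 (0.59), are nucleolar factors too and were named after their values were seen. NOP2 followed in the order (0.66 ± 0.21, SE, edgeR adjusted p = 0.0942), at a low level of 0.702 to 2.391 CPM over the 8 libraries. At the low end stood SHMT2, CDK4 and PAICS, of one-carbon metabolism, the cell cycle and purine synthesis, with log2 changes of -0.15, 0.00 and 0.07. Without the MDA-MB468 parental pair no gene of any list was called, as 0 genes were called at all.

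Pair by pair, the median of the 38 MYC-activated genes with at least 1 CPM was 0.18 in MDA-MB468 parental (all genes -0.10), 0.39 in MDA-MB468 CE (-0.05), 0.01 in BT549 parental (-0.10) and 0.23 in BT549 CE cells (-0.20). The BT549 parental pair had the lowest list median, and there 20 genes were higher and 18 lower with total counts but 28 and 10 with TMM. In CE over parental control cells the medians were -0.07 in MDA-MB468 and -0.46 in BT549 (all genes 0.03 and -0.04), with 29 and 33 of 38 lower. ODC1, the first enzyme of polyamine synthesis, was the lowest by its larger ratio (118 and 83.6 CPM in MDA-MB468 parental and CE control cells, 242 and 124 CPM in BT549), and PPAN came next (-0.46 and -0.30). LDHA was at the other end, with 692 CPM in BT549 parental and 1452 CPM in BT549 CE control cells but 787 and 805 CPM in MDA-MB468, followed by CAD, of pyrimidine synthesis (-0.01 and 0.11). None of these passed in the test across both lines.

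**Figure D4:**
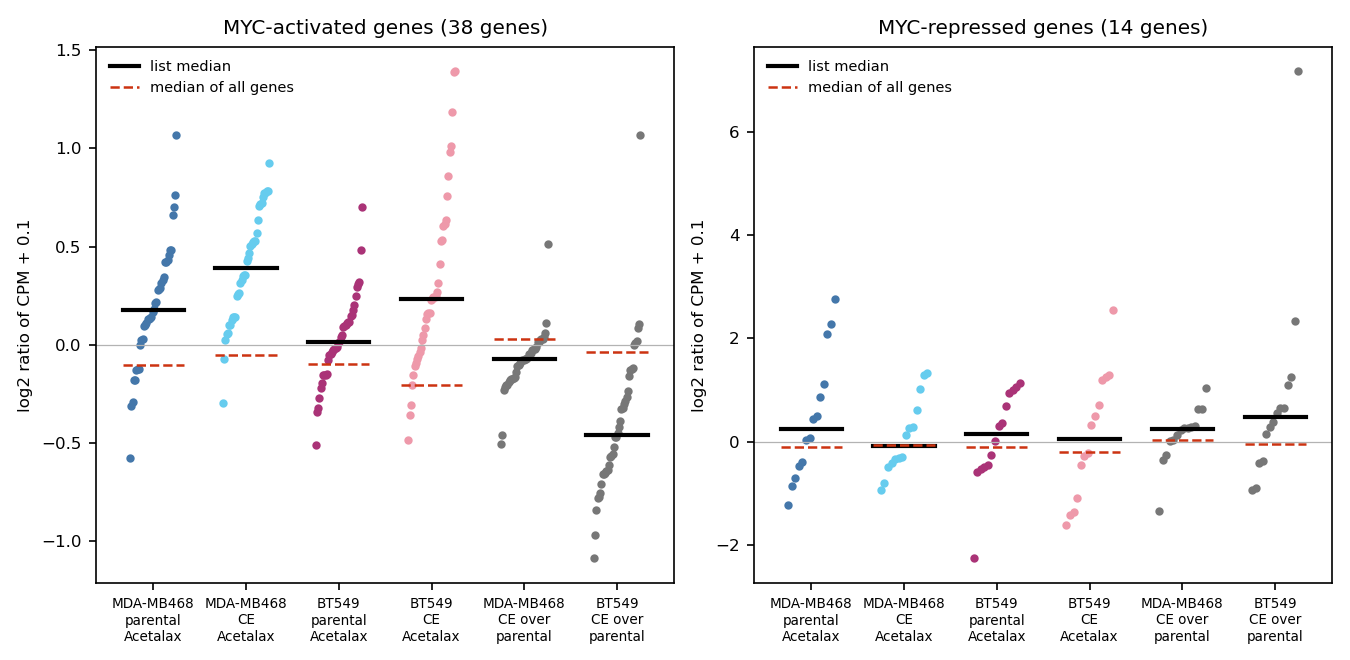
Log2 ratios of CPM + 0.1 (vertical axis) of the 38 MYC-activated genes (left) and 14 MYC-repressed genes (right, other scale) in the 4 Acetalax pairs and the 2 CE over parental pairs; each point is 1 gene, black lines are list medians and dashed red lines medians of all genes. The MYC-activated median is 0.39 in MDA-MB468 CE with Acetalax and -0.46 in BT549 CE over parental cells, and the highest point on the right is NDRG1 in BT549 CE over parental cells (7.17).

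Genes known to be repressed by MYC did not move in 1 direction. Of 16 tested, 3 were called higher and 1 lower with Acetalax, beside 2.72% and 2.27% of all genes tested. The median was 0.05 against -0.04 over all genes. The 1 called lower was TXNIP, which is also on the list of MondoA-MLX targets below. The genes that rose were GADD45A (1.84 ± 0.25, SE, edgeR adjusted p = 0.0295), THBS1 (1.48 ± 0.22, SE, edgeR adjusted p = 0.0318) and CDKN1A (1.54 ± 0.31, SE, edgeR adjusted p = 0.0424), a stress gene, a matrix protein and the cell cycle inhibitor p21. CDKN1A stood at 23.4 and 160 CPM in MDA-MB468 parental, 36.5 and 56.2 in MDA-MB468 CE, 23.2 and 51.5 in BT549 parental and 50.04 and 122 CPM in BT549 CE cells, without and with drug. At the low end were TXNIP, NDRG2 (-1.02 ± 0.33, SE, edgeR adjusted p = 0.0999) and CDKN1B (-0.62 ± 0.20, SE, edgeR adjusted p = 0.0966), which encodes the cell cycle inhibitor p27. NDRG2 did not exceed 0.221 CPM in BT549, so its change rests on MDA-MB468. It stood there at 9.48 and 4.035 CPM without and with drug in parental cells, and at 3.67 and 2.607 CPM in CE cells. In CE over parental control cells CDKN1A (log2 ratios 0.64 and 1.10 in MDA-MB468 and BT549) and GADD45B (0.31 and 0.39) were highest by this order, and ITGA6 (0.03 and -0.37) and CCND1 (0.14 and -0.89) lowest. NDRG1, chosen after its values were seen, stood at 0.852 CPM in BT549 parental and 137 CPM in BT549 CE control cells, and at 17.2 and 20.9 CPM in MDA-MB468.

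TXNIP, an inhibitor of glucose uptake that MondoA and MLX activate together, went from 21.1 to 4.35 CPM in BT549 parental and from 108 to 42.04 CPM in BT549 CE cells, while MDA-MB468 had at most 0.091 CPM in any library. The list of MondoA-MLX targets had 5 tested genes of 7, with 1 called higher and 2 lower, beside 2.72% and 2.27% of all genes tested. Its median log2 change was -0.17 against -0.04 over all genes. TXNIP (-1.76 ± 0.31, SE, edgeR adjusted p = 0.0376) rests on BT549. ARRDC3, an arrestin related to TXNIP, fell in all 4 backgrounds, from 53.2 to 21.0 and from 34.2 to 8.43 CPM in MDA-MB468 parental and CE cells and from 131 to 75.5 and from 187 to 83.5 CPM in BT549 (-1.23 ± 0.19, SE, edgeR adjusted p = 0.0326). KLF10, a zinc finger transcription factor, rose, with log2 ratios of 1.65, 0.66, 1.05 and 1.78 (1.38 ± 0.20, SE, edgeR adjusted p = 0.0313). HK2 and PFKFB3, of glycolysis, had log2 changes of -0.17 and 0.44 and did not pass. The fall of ARRDC3 in both lines stood beside MLX values that were higher with drug in MDA-MB468 and lower in BT549. In CE over parental control cells TXNIP was 108 against 21.1 CPM in BT549, and in MDA-MB468 and BT549 the log2 ratios were 0.40 and 0.07 for HK2 and 0.01 and 0.34 for PFKFB3.

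Genes that set the stability of MYC protein or act as its cofactors were read from a list of 22. With Acetalax 2 were called higher and 0 lower, beside 2.72% and 2.27% of all genes tested. Their median was -0.01 against -0.04 over all genes. PIM1, a kinase that phosphorylates MYC, went from 21.3 to 162 CPM in MDA-MB468 parental, from 30.2 to 58.0 in MDA-MB468 CE, from 66.3 to 146 in BT549 parental and from 51.8 to 163 CPM in BT549 CE cells (1.74 ± 0.30, SE, edgeR adjusted p = 0.0376). USP36, a nucleolar deubiquitinase that acts on MYC, rose too, with log2 ratios from 0.65 to 1.21 (0.93 ± 0.13, SE, edgeR adjusted p = 0.0295). GSK3B, which marks MYC for degradation, was higher in each pair and missed the threshold (0.56 ± 0.13, SE, edgeR adjusted p = 0.0510). At the low end stood the cofactor EP400, the deubiquitinase USP28 and CIP2A, which shields MYC from dephosphorylation, all lower in each pair, with log2 changes of -0.37, -0.53 and -0.26 (edgeR adjusted p = 0.0588, 0.0607 and 0.153). In CE over parental control cells USP28 (0.11 and 0.59) and TRRAP (0.08 and 0.10) were at the high end and RUVBL2 (-0.05 and -0.28) was at the low end. In the complex of MGA, 0 of 9 genes were called with Acetalax in either direction, and the median log2 change was -0.01. MAX, TFDP1 and E2F6 were at its high end (0.33, 0.14 and 0.32) and RING1, CBX3 and PCGF6 at its low end (-0.06, -0.01 and -0.45). In CE over parental control cells TFDP1 and CBX3 were at the high end of that list and PCGF6 and RNF2 at the low end, with log2 ratios from -0.32 to 0.12.

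The genes most like MYC, MXD1 and MAX across the 8 libraries were picked by Pearson r of log2 CPM centred within each line, among 11135 genes whose mean reached 5 CPM. The points share libraries and the split into treated and control cells, and each r is the highest of 11135, so they serve as a description. For MYC they were RASSF1 (r = 0.996), AMD1 (0.995) and PXDC1 (0.994, over 8 libraries). AMD1, an enzyme of polyamine synthesis, stood at 177 and 361 CPM in MDA-MB468 parental cells, 155 and 254 in MDA-MB468 CE, 173 and 276 in BT549 parental and 136 and 311 CPM in BT549 CE cells, without and with drug. For MXD1 they were CHTOP (0.989), GMEB1 (0.979) and SNRPB (0.978), and for MAX PFDN4 (0.992), SLC25A17 (0.988) and SZRD1 (0.987). CHTOP shared with MXD1 the lack of a rise in MDA-MB468 CE cells, with 127 and 129 CPM there against 107 and 161 CPM in BT549 parental cells.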

How the data were processed

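PolyA RNA of MDA-MB468 and BT549 cells was sequenced as read pairs in 8 libraries, 1 per condition, and groups were taken from the sample labels. The authors aligned reads to hg19 with STAR (version 2.7.11b in the submitters' notes), and counted them by its GeneCounts option. The deposited values are these counts, not normalized. The annotation and strand setting are not given in the sources used here. The table has 58154 rows for 55679 identifiers; repeated identifiers (1392, MXD4 among them) were kept 1 time, and 3 of these differed in counts. Totals were 42261122 to 54241728 counts, and Wilson (95%) and Poisson intervals cover counting error only.

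CPM was computed from the total, FPKM from merged exons of GENCODE lifted to hg19, and ratios as log2 of CPM + 0.1. Tests used edgeR 4.0.16 (R 4.3.3; quasi-likelihood, TMM, filterByExpr, Benjamini-Hochberg, threshold 0.05), checked on simulated data. All 8 libraries entered the Acetalax fits, with an intercept for each of the 4 backgrounds, and 1 Acetalax term (3 residual degrees of freedom), a term each for parental and CE cells (2) or a term each per line (2). The 4 controls entered the CE fit, with terms for line and CE (1). Single pairs were called at 1.5-fold. Alternatives were DESeq2 1.42.0, other scalings, filters and pseudocounts, and leaving out each pair. Members and lists were chosen with earlier results of these data known. Named were all members and network partners, the 3 genes at each end of the other lists by their least extreme Acetalax ratio (2 at each end for CE), PVT1, and the 3 genes most like MYC, MXD1 and MAX. DDX21, WDR43, NOLC1 and NDRG1 fall outside this rule. Protein sequences were not used here. A gene that the naming rule picks at the low end of the list of stability genes and cofactors is not reported here.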

Additional observations from a re-analysis of the deposited data

Results flagged for a closer look

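MXD1 and MLX were singled out because the response of MXD1 to Acetalax differed between the lines by test and that of MLX had opposite signs in them. The test was added after those signs had been seen. Its p-values measure the spread between the parental and CE pairs of a line, not between independent cultures. For MXD1 the response in BT549 minus that in MDA-MB468 was 1.52 on the log2 scale (edgeR adjusted p = 0.0452), with log2 ratios of 1.77 and 2.02 in BT549 and 0.77 and 0.08 in MDA-MB468. Over its other 8 settings the edgeR or DESeq2 adjusted p lay between 6.06e-07 and 0.0811, and 1 setting, the fit without the MDA-MB468 CE pair, missed the threshold. For MLX every pair of MDA-MB468 moved up and every pair of BT549 down, the BT549 CE pair only to percentile 34.3 of genes. The difference between the lines was -0.74 (edgeR adjusted p = 0.104). It passed with DESeq2 (adjusted p = 0.0347) and with edgeR without the filter on low counts (adjusted p = 0.0437), and not in the other settings, whose adjusted p values reached 0.390. The 4 to 10 libraries per group that a search for a library far from the rest needs were not there, with 1 library per condition.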

How the results depend on the processing

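Each Acetalax fit already sets a treated library against the control of its own background. For 1 Acetalax term across backgrounds, MYC passed in 10 of 11 settings (log2 change 0.68 to 0.90, adjusted p 3.05e-09 to 0.170 by edgeR or DESeq2). MNT, MXD1 and MXD3 passed in 4, MAX and MXD4 in 1, and MXI1, MGA and MLX in 0. These settings include fits without 1 pair and fits of 1 line alone, which rest on fewer than 4 backgrounds. The difference between the lines passed for MXD1 in 8 of 9 settings and for MXD4 and MLX in 2. Of the member values under alternatives, 372 were counted as unchanged, 25 came to pass the threshold, 2 lost it, 27 changed sign and 6 moved by at least 1 SE. Tests counted as unchanged kept direction and side of the threshold. The CE over parental ratios of each line alone, with TMM, have no test and were counted as unchanged within 1 SE of the fit. In MDA-MB468 these included MNT (-0.09 against 0.13) and MLX (-0.11 against 0.02), although their signs differed. Of 54 pair ratios, 54 with pseudocount 1 and 40 with TMM moved by less than counting error, and 0 ratios past 1.5-fold changed sign.

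Counts of called genes moved with the processing, and the cause was not tested. Without the filter on low counts they were 643 (parental), 1080 (CE), 3 (CE minus parental), 3585 (4 backgrounds), 1632 (BT549 minus MDA-MB468) and 45 (CE against parental control), and with DESeq2 90, 357, 0, 2930, 941 and 50. Leaving out 1 pair gave 0 to 182 (parental; 182 without BT549 parental), 0 to 207 (CE; 207 without MDA-MB468 CE), 0 to 2 (CE minus parental), 0 to 554 (4 backgrounds; 0 without MDA-MB468 parental) and 100 to 1360 (between lines; 100 without MDA-MB468 parental, 1360 without BT549 parental). The 2 pairs of MDA-MB468 alone gave 3084 calls and those of BT549 alone 1754, settings chosen after seeing the data, as were the fit per line and the shares on the longest transcript. Of single pairs at 1.5-fold, a minimum of 5 CPM gave 1270 and 653 lower genes in MDA-MB468 parental and CE, 463 higher in BT549 parental, 119 lower in all 4, and 504 higher and 420 lower in MDA-MB468 CE over parental. Pseudocount 1 gave 490 higher and 1076 lower in BT549 parental, 630 higher in MDA-MB468 CE over parental, and 59 higher and 91 lower in all 4, and TMM gave 2494 genes higher at any size in all 4.

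Changes of sign were in values that had not passed in the report. With total counts MGA and MLX in CE cells were -0.0598 and -0.0533. In the MDA-MB468 pairs alone MXI1 was 0.17 and MLX 0.38. Leaving out 1 pair gave, on the log2 scale, in parental cells -0.73 to 0.19 (MXD4) and -0.53 to 0.33 (MLX), in CE cells -0.79 to 0.10 (MXI1) and -0.24 to 0.41 (MLX), and over the 4 backgrounds -0.16 to 0.19 (MXI1) and -0.16 to 0.15 (MLX). For CE minus parental it gave -0.0359 to 0.51 (MYC), -0.022 to 0.23 (MAX), -0.65 to 0.21 (MNT), -1.18 to 0.91 (MXD1), -0.96 to 0.11 (MXD3), -0.73 to 0.17 (MXD4) and -0.27 to 0.62 (MLX). For BT549 minus MDA-MB468 it gave -0.24 to 0.37 (MYC), -0.37 to 0.94 (MXD3), -0.99 to 0.17 (MXI1) and -0.16 to 0.0442 (MGA). With 1 library per condition, the spread between cultures is unknown for every value, and more depth would narrow only the counting intervals.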

Other observations

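MXI1, NDRG1, TXNIP and MXD4, picked from the lists after their values were seen, were higher in BT549 CE than in BT549 parental cells without drug, and lower in BT549 CE cells with drug. MXI1 stood at 5.63 CPM in parental control, 16.04 in CE control and 8.07 CPM in CE cells with Acetalax. NDRG1, a stress-responsive gene, stood at 0.852, 137 and 64.8 CPM in the same order. TXNIP stood at 21.1, 108 and 42.04 CPM, and MXD4 at 55.9, 107 and 77.3 CPM. In MDA-MB468 NDRG1 was 17.2, 20.9 and 22.8 CPM and MXI1 18.0, 20.9 and 21.2 CPM, so neither followed this order there, and TXNIP did not exceed 0.091 CPM. MXD4 did follow it in MDA-MB468, at 25.01, 32.4 and 17.4 CPM. In BT549 MXD3 had the same order, at 26.1, 41.1 and 14.9 CPM, and TXNIP fell with drug in parental cells too, from 21.1 to 4.35 CPM. In BT549 CE cells 26.6% of genes were at least 1.5-fold lower with drug. Both steps use the same BT549 CE control library, so an error in that library would by itself give this order in genes picked for it. Each value is 1 library and the pattern has no test.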
